A study of Mus musculus with 8 samples.

Results

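The precursor genes of neuropeptides that uninjured sensory neurons make were described in injured and uninjured ganglia: Tac1, Calca, Calcb, Sst, Nppb, Cartpt and Penk. They were chosen by name, and all 7 members were found among the 21878 gene symbols of the table. RNA of C57BL/6 dorsal root ganglia from levels L4 and L5, which hold the cell bodies of sensory neurons of the leg, was sequenced 3 days after surgery. dKO mice carried Advillin-Cre and floxed alleles of Myh9 and Myh10, the heavy chain genes of non-muscle myosin IIA and IIB. WT mice carried the floxed alleles with no Cre. The 4 groups were dKO after cutting of the sciatic nerve (dKO SNI), dKO after sham surgery (dKO sham), WT after the nerve cut (WT SNI) and WT after sham surgery (WT sham). Each group held 2 libraries. Advillin-Cre acts mainly in sensory neurons, so glia, fibroblasts, vessels and immune cells of a dKO ganglion keep both myosin genes. The labels give neither the age of the mice nor how many contributed to a library.

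A neuropeptide is made as a long precursor, which is carried in dense-core vesicles, cut by proprotein convertases, trimmed by carboxypeptidases and often amidated before release. In nociceptors, the sensory neurons that respond to noxious heat, pressure and chemicals, substance P (from Tac1) and calcitonin gene-related peptide or CGRP (from Calca and Calcb) are released in the spinal cord and, from the peripheral endings, in skin, where they widen vessels and raise vascular leak. Somatostatin (Sst) and natriuretic polypeptide b (Nppb) are made by a small population of mouse itch neurons. Cartpt encodes the CART peptides, and Penk encodes the enkephalins, which are ligands of opioid receptors.

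All 7 genes are annotated as protein-coding. On build GRCm38, with the GENCODE vM21 annotation, Tac1 lies at chr6:7554879-7565834 on the plus strand and Sst at chr16:23889573-23890958 on the minus strand. Nppb lies at chr4:147985788-147987205 on the plus strand and Cartpt at chr13:99898489-99901091 on the minus strand. Penk lies at chr4:4133531-4138819 on the minus strand and overlaps A830012C17Rik, a processed transcript on the other strand. The labels do not say whether the libraries kept strand, so reads of those 2 genes cannot be told apart. Calca lies at chr7:114631478-114636357 on the minus strand and Calcb at chr7:114718643-114723365 on the plus strand, 82.3 kb away.

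Calca and Calcb each encode a form of CGRP, and their coding sequences are alike where the peptide is encoded. The closest stretch is shown because it bears on how well reads of both genes can be separated. It is 154 bases long, bases 205 to 358 of the 384-base coding sequence of transcript Calca-201 and bases 208 to 361 of the 390-base coding sequence of Calcb-201. Capitals mark the 10 bases that differ.
Calca-201: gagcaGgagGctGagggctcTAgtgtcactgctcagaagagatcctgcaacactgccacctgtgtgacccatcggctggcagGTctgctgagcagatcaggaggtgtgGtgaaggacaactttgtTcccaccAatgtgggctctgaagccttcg
Calcb-201: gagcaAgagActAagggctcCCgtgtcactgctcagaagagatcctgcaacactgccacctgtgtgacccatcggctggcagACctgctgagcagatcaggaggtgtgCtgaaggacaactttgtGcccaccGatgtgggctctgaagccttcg
The stretches matched at 144 bases (93.5%), and the longest identical run was 60 bases. Over the 6 coding transcripts of Calca and the 3 of Calcb, 12 windows of 50 bases were shared, of 1634 in Calca and 1260 in Calcb. How the authors assigned reads that fit both genes is not given in the sources used here, so the split between Calca and Calcb is uncertain for reads from this stretch. Calca also gives calcitonin by alternative splicing, and the deposited values do not separate the splice forms.

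RefSeq promoter sequences on GRCm38.p6 were at hand for Tac1, Calca, Sst, Nppb and Cartpt, and the 250 bases before the RefSeq start were searched on both strands. For Tac1, Sst, Nppb and Cartpt that start lies inside the GENCODE gene given above, so their windows overlap the annotated gene, and that of Cartpt lies wholly within it. The cAMP response element TGACGTCA, which binds CREB family factors, its half-site TGACG, which reads CGTCA on the other strand and is also part of the full element, the AP-1 element TGANTCA and the E-box CACGTG were searched. The promoters of 4 genes are shown, 3 with matches and Nppb with none, because these genes are compared below. Capitals mark the matches.
Tac1, chr6:7554811-7555060, plus strand: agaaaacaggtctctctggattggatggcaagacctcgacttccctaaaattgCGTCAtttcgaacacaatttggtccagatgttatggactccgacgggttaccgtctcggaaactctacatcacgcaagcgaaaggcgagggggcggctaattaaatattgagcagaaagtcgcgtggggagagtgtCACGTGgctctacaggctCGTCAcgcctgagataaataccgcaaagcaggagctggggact
Sst, chr16:23890845-23891094, minus strand: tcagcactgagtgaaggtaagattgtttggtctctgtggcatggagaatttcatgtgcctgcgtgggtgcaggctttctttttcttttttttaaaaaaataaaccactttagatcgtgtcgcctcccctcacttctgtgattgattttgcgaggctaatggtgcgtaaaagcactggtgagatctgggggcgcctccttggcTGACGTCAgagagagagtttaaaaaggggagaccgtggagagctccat
Cartpt, chr13:99900684-99900933, minus strand: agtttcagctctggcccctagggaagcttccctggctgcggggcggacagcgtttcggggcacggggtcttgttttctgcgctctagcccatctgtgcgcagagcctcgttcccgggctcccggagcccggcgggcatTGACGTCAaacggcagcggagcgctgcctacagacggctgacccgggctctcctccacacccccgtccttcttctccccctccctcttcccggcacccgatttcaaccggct
Nppb, chr4:147985650-147985899, plus strand: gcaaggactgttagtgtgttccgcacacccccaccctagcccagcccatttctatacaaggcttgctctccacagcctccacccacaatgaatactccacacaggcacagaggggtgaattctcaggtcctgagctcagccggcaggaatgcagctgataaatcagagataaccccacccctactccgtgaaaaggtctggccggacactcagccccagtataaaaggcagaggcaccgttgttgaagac
The full cAMP response element stood in the Sst promoter with its first base at position -48 from the start and in the Cartpt promoter at position -112. It was found in 1.55% of 32851 promoters of the same length. The half-site was found in the Tac1 promoter at positions -197 and -43 and in the Calca promoter at position -65, and in 17.8% of all promoters. The E-box was found in Tac1 at position -61 and in 6.02% of all promoters. The AP-1 element was found in none of the 5 promoters and in 6.75% of all promoters. A match describes letters in this window and does not show that a factor binds there.

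Values are FPKM, fragment numbers scaled to transcript length and library size, as the authors deposited them. All 7 precursors were detected in all 8 libraries, the lowest value being 3.76 FPKM for Penk in a WT sham library. Together they reached 250 and 243 FPKM in dKO SNI ganglia, against 454 and 476 FPKM in dKO sham ganglia. The sums were 220 and 264 FPKM in WT SNI ganglia, against 418 and 382 FPKM in WT sham ganglia. No SNI library reached the sum of any sham library. Tac1 and Calca made up most of the sum in every library. By abundance among all genes Tac1 ranked between 213 and 889 over the libraries and Calca between 235 and 588, while Penk ranked between 4157 and 8368.

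Some facts of the libraries bear on every result below. After SNI, Myh9 stood at 24.6 and 24.4 FPKM in dKO ganglia, against 30.8 and 29.7 FPKM in WT ganglia. After sham surgery it stood at 10.9 and 12.1 FPKM in dKO ganglia, against 27.2 and 31.6 FPKM in WT ganglia. Myh10 ranged from 4.12 to 14.4 FPKM over the dKO libraries and from 10.4 to 23.5 FPKM over the WT libraries. Both genes were lower in dKO than in WT libraries of the same surgery, but not each difference passed the limma test described below. Myh9 passed after sham surgery (log2 difference -1.28, limma adjusted p = 0.00435) and not after SNI (-0.29, limma adjusted p = 0.113). Myh10 passed after SNI (-1.19, limma adjusted p = 0.00929) and not after sham surgery (-0.60, limma adjusted p = 0.299). Avil, the gene that drives Cre, was at 34.5 to 80.0 FPKM in dKO and 112 to 180 FPKM in WT libraries. The summed level of 13 pan-neuronal markers was 2250 to 3240 FPKM in dKO SNI and 3980 to 4330 FPKM in dKO sham, against 4080 to 5160 FPKM in WT SNI and 4410 to 4590 FPKM in WT sham ganglia. That of 8 macrophage markers was 144 to 150 FPKM in dKO SNI ganglia, against 21.0 to 24.8 FPKM in dKO sham ganglia, and 87.9 to 99.2 FPKM in WT SNI ganglia, against 15.5 to 18.5 FPKM in WT sham ganglia. The sum of 6 muscle markers reached 499 FPKM in WT sham 2 and at most 13.2 FPKM in any library of the other groups. The 4 Y-linked genes summed to 37.4 to 38.7 FPKM in dKO SNI and 22.7 to 23.2 FPKM in WT sham ganglia, against at most 0.0109 FPKM in dKO sham and WT SNI. Each comparison of a pair of groups therefore also sets libraries with Y-linked transcripts against libraries without them, and these effects cannot be told apart there. The difference of the injury effects has the same limit for all members, and whether sex or a mix-up of samples lies behind the Y-linked values was not tested. In the effects averaged over genotypes or over surgeries, each side holds both kinds of library.

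**Figure D1:**
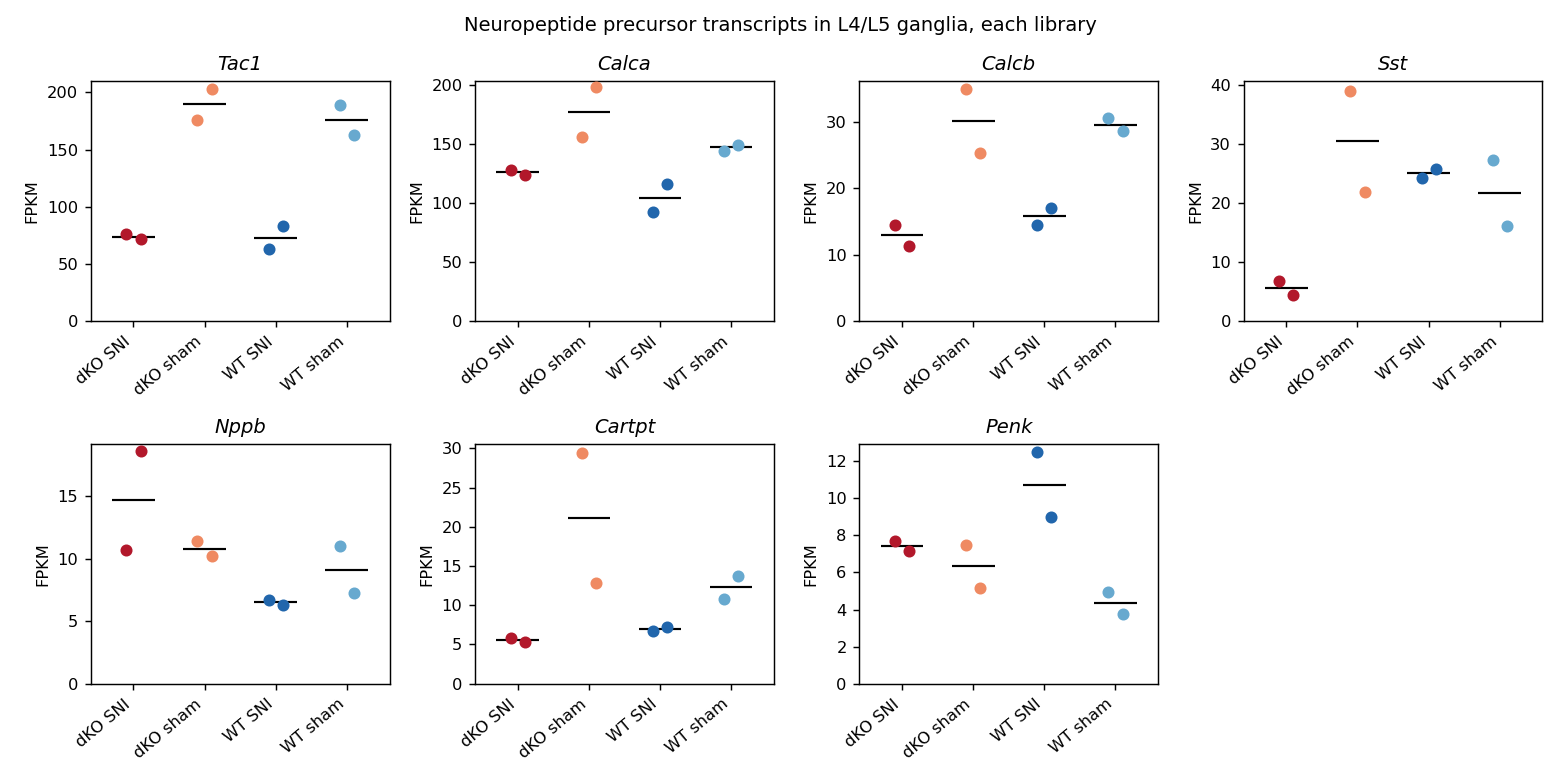
FPKM (linear axis from 0) of the 7 precursors in each library of dKO SNI, dKO sham, WT SNI and WT sham ganglia. Points are libraries and lines are means of 2. Tac1, Calca, Calcb and Cartpt are lower in both SNI groups than in the sham groups, while Sst is low only in the 2 dKO SNI libraries.

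Differences were tested with limma on log2(FPKM + 1) over all 12884 genes that passed a filter on low values, and called at a Benjamini-Hochberg adjusted p under 0.05. All 7 precursors passed the filter. Log2 changes below are on that scale, which understates the change of low genes. In whole ganglia, fewer cells of a type and less RNA per cell cannot be told apart.

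Averaged over both genotypes, 5 of the 7 precursors were lower after the nerve cut and 1, Penk, was higher. Of all genes, 55.0% were called in this comparison, 25.5% lower and 29.5% higher. The median log2 change was -0.99 over the members and 0.04 over all genes. The changes were largest for Tac1 (log2 change -1.31 ± 0.12, SE) and Cartpt (-1.18 ± 0.21), followed by Calcb, Sst and Calca. In dKO ganglia 5 of the 7 were lower after SNI and none was higher, where 48.4% of all genes were called, 24.6% lower and 23.8% higher. Without dKO SNI 2 the genes called numbered 3887 in place of 6236. In WT ganglia 2 were lower and 1 was higher, where 23.0% of all genes were called, 9.38% lower and 13.6% higher. That share rests on 2967 genes, against 1389 without WT sham 1, 1101 without WT sham 2 and 1133 without WT SNI 2. The members' median log2 change was -1.16 in dKO ganglia and -0.50 in WT ganglia. With WT sham 2, which held the muscle transcripts, left out, the same 3 members were called in WT ganglia (Tac1 at a log2 change of -1.37, Calcb at -0.92 and Penk at 0.96).

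Tac1, the precursor of substance P and neurokinin A, stood at 75.8 and 71.9 FPKM in dKO SNI ganglia, against 176 and 203 FPKM in dKO sham ganglia. It stood at 63.0 and 82.7 FPKM in WT SNI ganglia, against 189 and 163 FPKM in WT sham ganglia. Every SNI library lay below every sham library, and the genotypes overlapped within each surgery. The mean FPKM after SNI was 0.389 times that of sham in dKO and 0.414 times in WT ganglia. Tac1 fell by 1.35 ± 0.17 on the log2 scale in dKO ganglia (SE, limma adjusted p = 0.000334) and by 1.27 ± 0.17 in WT ganglia (limma adjusted p = 0.00124). The difference of the injury effects was -0.07 ± 0.24 (limma adjusted p = 0.906).

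Calca, the main gene of CGRP, stood at 128 and 124 FPKM in dKO SNI ganglia, against 156 and 198 FPKM in dKO sham ganglia. It stood at 92.1 and 116 FPKM in WT SNI ganglia, against 144 and 149 FPKM in WT sham ganglia. The groups did not overlap in either genotype, and the means after SNI were 0.715 times that of sham in dKO and 0.708 times in WT. Averaged over genotypes Calca fell by 0.49 ± 0.12 on the log2 scale (SE, limma adjusted p = 0.00753). With each library centred on the pan-neuronal markers that change was -0.06 (limma adjusted p = 0.741). In dKO ganglia alone the log2 change of Calca was -0.47 ± 0.17 (limma adjusted p = 0.0449). It turned to 0.21 with centring on pan-neuronal markers (limma adjusted p = 0.408). In that same comparison the call was lost without dKO sham 2 (log2 change -0.30), without either dKO SNI library, without either WT sham library, in a fit of the 4 dKO libraries alone and with no filter on low values (limma adjusted p = 0.0653 to 0.241). In WT ganglia the log2 change of Calca was -0.50 ± 0.17 and did not pass (limma adjusted p = 0.0604), but it passed with median centring (limma adjusted p = 0.0362).

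Calcb, the gene of the second CGRP form, stood at 14.5 and 11.3 FPKM in dKO SNI ganglia, against 35.0 and 25.4 FPKM in dKO sham ganglia. It stood at 14.5 and 17.0 FPKM in WT SNI ganglia, against 30.6 and 28.6 FPKM in WT sham ganglia. The SNI libraries lay below all sham libraries. Calcb fell by 1.16 ± 0.18 on the log2 scale in dKO ganglia (SE, limma adjusted p = 0.000888) and by 0.87 ± 0.18 in WT ganglia (limma adjusted p = 0.00882). The WT call was lost without WT sham 1 (limma adjusted p = 0.0556), and the dKO call with centring on pan-neuronal markers (-0.48, limma adjusted p = 0.0539). With Calca and Calcb summed into 1 value, as the shared stretch allows, the WT log2 change was -0.56 (limma adjusted p = 0.0334).

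Ratios between members within a library do not depend on the library's total. The log2 ratio of Calca to Calcb was 3.06 and 3.35 in dKO SNI, against 2.12 and 2.91 in dKO sham, and 2.58 and 2.70 in WT SNI, against 2.20 and 2.34 in WT sham ganglia. Between 4 SNI and 4 sham libraries it differed by 0.53 (exact permutation test, two-sided, p = 0.0857, adjusted p = 0.2286 over 6 ratio tests). The log2 ratio of Tac1 to Calca was -0.75 and -0.78 in dKO SNI, against 0.18 and 0.04 in dKO sham, and -0.54 and -0.48 in WT SNI, against 0.38 and 0.13 in WT sham ganglia. Calca therefore exceeded Tac1 in all 4 SNI libraries, and Tac1 exceeded Calca in all 4 sham libraries. The difference of -0.82 gave p = 0.0286 by the exact permutation test, the smallest p that 4 against 4 libraries can give, and an adjusted p of 0.1714, which did not pass. It was -0.87 to -0.75 when each library was left out in turn.

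**Figure D2:**
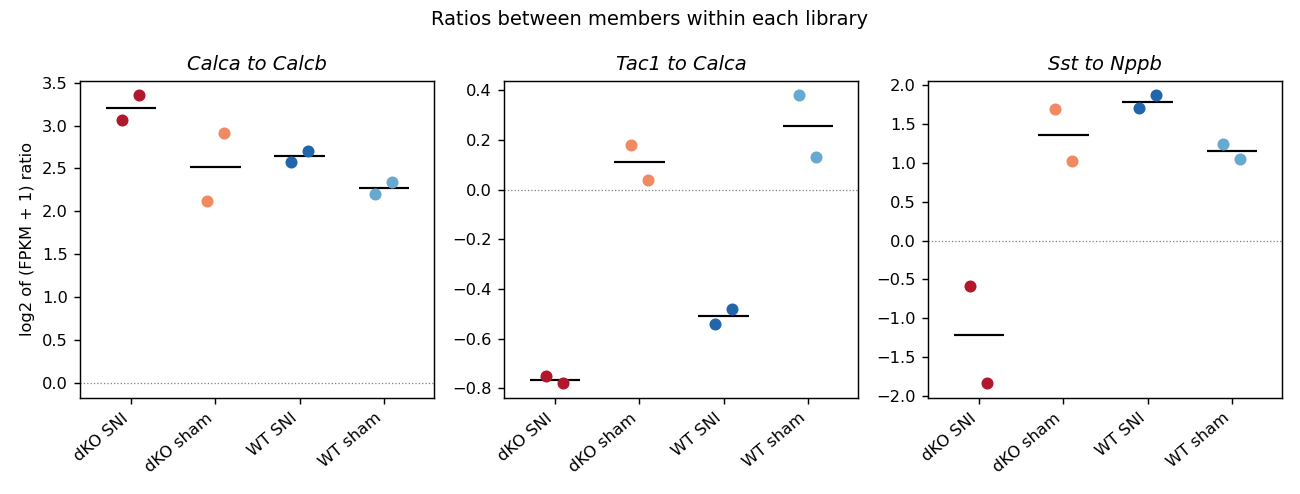
Log2 of the ratio of (FPKM + 1) for Calca to Calcb, Tac1 to Calca and Sst to Nppb in each library of dKO SNI, dKO sham, WT SNI and WT sham ganglia. Points are libraries, lines are means of 2 and the dotted line marks equal values. Tac1 to Calca is below 0 in the SNI libraries, and Sst to Nppb is below 0 in the 2 dKO SNI libraries.

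Sst, the precursor of somatostatin, stood at 6.79 and 4.48 FPKM in dKO SNI ganglia, against 39.0 and 21.9 FPKM in dKO sham ganglia. It stood at 24.3 and 25.8 FPKM in WT SNI ganglia, against 27.3 and 16.2 FPKM in WT sham ganglia. The dKO SNI libraries lay below all 6 others, and WT SNI lay within the range of WT sham. The dKO SNI mean was 0.185 times the dKO sham mean and 0.225 times the WT SNI mean. Sst fell by 2.21 ± 0.30 on the log2 scale with SNI in dKO ganglia (SE, limma adjusted p = 0.000442), and the log2 change in WT ganglia was 0.24 ± 0.30 (limma adjusted p = 0.586). It was the member with the largest difference of injury effects, -2.45 ± 0.42 (unadjusted p = 0.000213), which did not pass over all genes (limma adjusted p = 0.164). Without WT sham 1 that difference was -2.81 and passed (limma adjusted p = 0.0442).

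Nppb, an itch transmitter of the same neurons as Sst in mice, stood at 10.7 and 18.6 FPKM in dKO SNI ganglia, against 11.4 and 10.2 FPKM in dKO sham ganglia. It stood at 6.73 and 6.32 FPKM in WT SNI ganglia, against 11.0 and 7.30 FPKM in WT sham ganglia. The dKO groups overlapped, and WT SNI lay below WT sham. Neither injury change passed: the log2 change was 0.36 ± 0.24 in dKO ganglia (limma adjusted p = 0.238) and -0.40 ± 0.24 in WT ganglia (limma adjusted p = 0.248). The dKO value rests on dKO SNI 2. Without it the log2 change was -0.01, and without dKO SNI 1 it was 0.73 and passed (limma adjusted p = 0.0258).

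The log2 ratio of Sst to Nppb was -0.59 and -1.84 in dKO SNI, against 1.69 and 1.03 in dKO sham ganglia. It was 1.71 and 1.87 in WT SNI, against 1.25 and 1.05 in WT sham ganglia. Nppb exceeded Sst in the 2 dKO SNI libraries, and Sst exceeded Nppb in the 6 others. Over genotypes the ratio differed by -1.40 (exact permutation test, two-sided, p = 0.1143, adjusted p = 0.2286), and over surgeries by -0.97 (exact permutation test, p = 0.4286, adjusted p = 0.5143). Other markers of these itch neurons were Il31ra and Osmr, which form the interleukin-31 receptor, Cysltr2, a leukotriene receptor, Htr1f and Npy2r. Of these 5 genes, 4 were lower after SNI in dKO ganglia, where 24.6% of all genes were lower. None passed in WT ganglia, where 23.0% of all genes were called. Il31ra stood at 4.57 and 4.50 FPKM in dKO SNI ganglia, against 11.3 and 6.31 FPKM in dKO sham ganglia, and 5.22 and 6.17 FPKM in WT SNI ganglia, against 9.27 and 6.68 FPKM in WT sham ganglia. Its log2 change was -0.78 in dKO ganglia, where that of Sst was -2.21. With centring on pan-neuronal markers none of the 5 passed, and their median in dKO ganglia was 0.04.

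Cartpt stood at 5.88 and 5.31 FPKM in dKO SNI ganglia, against 29.4 and 12.8 FPKM in dKO sham ganglia. It stood at 6.70 and 7.27 FPKM in WT SNI ganglia, against 10.8 and 13.7 FPKM in WT sham ganglia. All SNI libraries lay below all sham libraries, and the dKO sham libraries differed from each other by more than any other pair. Cartpt fell by 1.64 ± 0.30 on the log2 scale in dKO ganglia (SE, limma adjusted p = 0.00203). In WT ganglia the log2 change was -0.72 ± 0.30 (limma adjusted p = 0.108). It stayed at -0.72 and passed when either dKO sham library was left out of the shared estimate of the spread (limma adjusted p = 0.0112 and 0.011) and in a fit of the 4 WT libraries alone (limma adjusted p = 0.0147).

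Penk, the enkephalin precursor, stood at 7.67 and 7.16 FPKM in dKO SNI ganglia, against 7.50 and 5.15 FPKM in dKO sham ganglia. It stood at 12.5 and 8.98 FPKM in WT SNI ganglia, against 4.97 and 3.76 FPKM in WT sham ganglia. WT SNI lay above the 6 other libraries and the dKO groups overlapped. Penk rose by 1.12 ± 0.20 on the log2 scale in WT ganglia (SE, limma adjusted p = 0.00489), and the mean was 2.46 times that of sham. In dKO ganglia the log2 change was 0.22 ± 0.20 (limma adjusted p = 0.393). With centring on pan-neuronal markers it was 0.90 and called (limma adjusted p = 0.00434), where 8226 of 12884 genes were called higher. The difference of the injury effects was -0.90 ± 0.28 (unadjusted p = 0.0106, limma adjusted p = 0.273). Penk had the lowest mean of the 7 members in both sham groups, and its higher level after SNI in WT ganglia goes against the label of a peptide of resting neurons.

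The order of the levels changed with injury. In dKO SNI ganglia the means ran from Calca (126 FPKM) through Tac1 (73.8 FPKM), Nppb (14.7 FPKM), Calcb (12.9 FPKM), Penk (7.42 FPKM) and Sst (5.64 FPKM) to Cartpt (5.59 FPKM). There, Nppb and Calcb overlapped, as did Sst and Cartpt. In dKO sham ganglia Tac1 (190 FPKM) and Calca (177 FPKM) overlapped at the top, Sst, Calcb and Cartpt overlapped with their neighbours in the middle, and Nppb (10.8 FPKM) and Penk (6.33 FPKM) came last. In WT SNI ganglia Calca (104 FPKM) came before Tac1 (72.8 FPKM), Sst (25.1 FPKM), Calcb (15.8 FPKM) and Penk (10.7 FPKM), and the last neighbours, Cartpt and Nppb, overlapped. In WT sham ganglia Tac1 (176 FPKM) came before Calca (147 FPKM), Calcb (29.6 FPKM) and Sst (21.8 FPKM), then Cartpt and Nppb, which overlapped, and Penk (4.37 FPKM). Calca made up 51.4 and 51.1% of the summed level of the 7 in dKO SNI libraries, against 34.3 and 41.5% in dKO sham libraries.

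**Figure D3:**
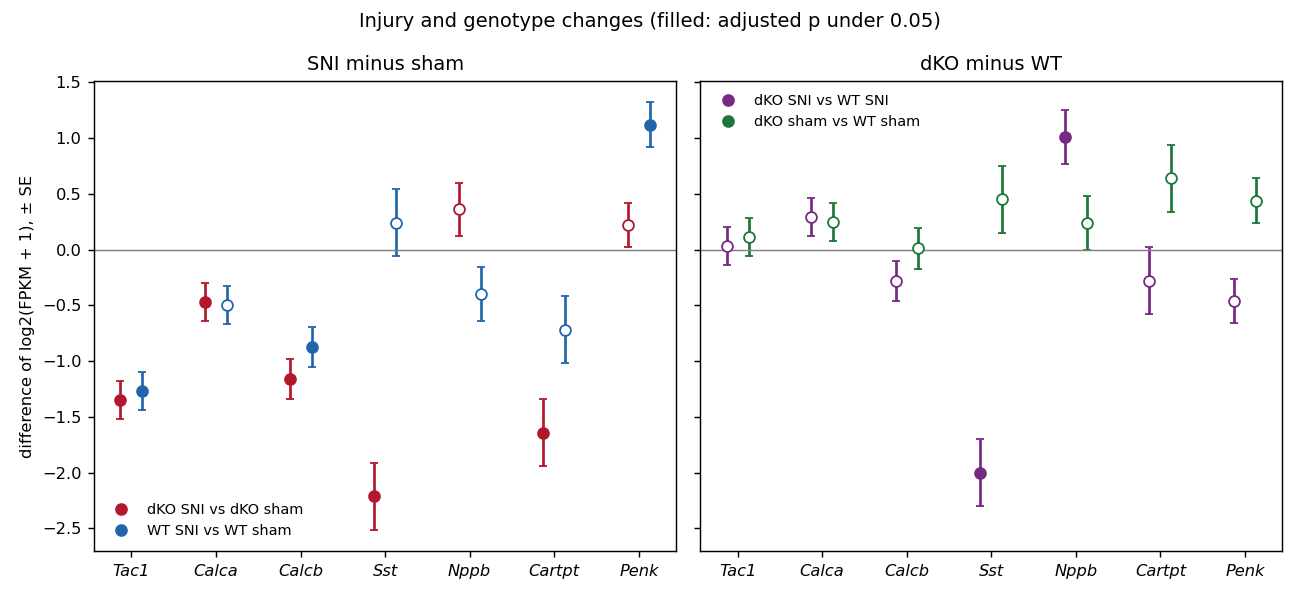
Difference of mean log2(FPKM + 1) with its SE from limma for each precursor, SNI minus sham on the left and dKO minus WT on the right, 2 libraries a group. Filled points passed an adjusted p of 0.05. Sst stands at -2.21 for SNI in dKO and 0.24 in WT ganglia, and on the right only Sst (-2.00) and Nppb (1.01) after SNI passed.

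The deletion was compared without and with injury. Between dKO sham and WT sham ganglia no member passed limma at the adjusted threshold, where 0.155% of all genes were called. None reached an unadjusted p under 0.05 either, and the share of all genes under that limit is not given here. Log2 differences ran from 0.01 for Calcb to 0.64 for Cartpt, and their median was 0.25, against 0.04 over all genes. Calca and Penk were higher in both dKO sham than in both WT sham libraries, and the other members overlapped. Their log2 differences were 0.25 for Calca (limma adjusted p = 0.606) and 0.44 for Penk (limma adjusted p = 0.471). The share of all genes without overlap is not given here.

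After SNI, 2 of the 7 members differed between dKO and WT ganglia, 1 higher and 1 lower, where 24.1% of all genes were called, 10.7% higher and 13.4% lower. The log2 difference of Sst between dKO SNI and WT SNI ganglia was -2.00 ± 0.30 (SE, limma adjusted p = 0.00929). Nppb was higher by 1.01 ± 0.24 (limma adjusted p = 0.0198), with a mean 2.25 times that of WT SNI. These calls depend on single libraries. Without WT SNI 1 neither passed, while the log2 differences were -2.04 for Sst and 1.05 for Nppb. Without dKO SNI 2 neither passed, and the log2 differences were -1.74 for Sst and 0.64 for Nppb. Without WT SNI 2 or with no filter on low values Nppb did not pass (limma adjusted p = 0.0546 and 0.058). Over all genes the number called was 3106, against 10 without WT SNI 1 and 11 without dKO SNI 2. The log2 difference of Penk was -0.46 ± 0.20 and did not pass (limma adjusted p = 0.116), and that of Tac1 was 0.03.

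Averaged over surgeries, the same 2 members were called between dKO and WT, 1 higher (Nppb, 0.63 ± 0.17, limma adjusted p = 0.0315) and 1 lower (Sst, -0.77 ± 0.21, limma adjusted p = 0.0319). Of all genes, 22.2% were called, 11.8% higher and 10.4% lower. These 2866 genes became 420 without WT SNI 1, 423 without dKO sham 2, 510 without WT sham 2, 694 without dKO SNI 2 and 1471 without WT sham 1. With no filter on low values neither passed (limma adjusted p = 0.0857 for Sst and 0.0819 for Nppb). The Sst call was also lost with centring on pan-neuronal markers (-0.36, limma adjusted p = 0.156) and without WT sham 1, WT SNI 1, WT SNI 2, dKO sham 2 or dKO SNI 2 (limma adjusted p = 0.0562 to 0.111). That of Nppb was lost without WT sham 2, WT SNI 1, WT SNI 2, dKO sham 1, dKO sham 2 or dKO SNI 2 (limma adjusted p = 0.0564 to 0.111). The members' median was 0.07, against 0.01 over all genes. The difference of the injury effects passed for no member by limma at the adjusted threshold, where 0.0543% of all genes were called. Before adjustment 3 members (Sst, Nppb and Penk) had a limma p under 0.05. The share of all genes under that unadjusted limit is not given here, so the count of 3 has no background.

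Pan-neuronal markers were lower in the dKO SNI libraries, and centring each library on their mean shifted the median log2 change of all genes by 0.68 for SNI in dKO ganglia and by 0.17 in WT ganglia. On this scale the dKO log2 changes of Tac1 (-0.66), Sst (-1.53) and Cartpt (-0.95) still passed as lower (limma adjusted p = 0.025, 0.00164 and 0.0178). Nppb (1.05) and Penk (0.90) passed as higher, where 8226 of 12884 genes were called higher and 615 lower. The median of all genes shifted by 0.67 for dKO SNI against WT SNI ganglia. There, Tac1 (0.71), Calca (0.96) and Nppb (1.68) passed as higher and Sst (-1.32) as lower, while 8393 of 12884 genes were called higher and 101 lower. Of the 7 members only Sst was below the pan-neuronal markers by that measure, and its difference from WT SNI was negative under every scaling that was run.

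**Figure D4:**
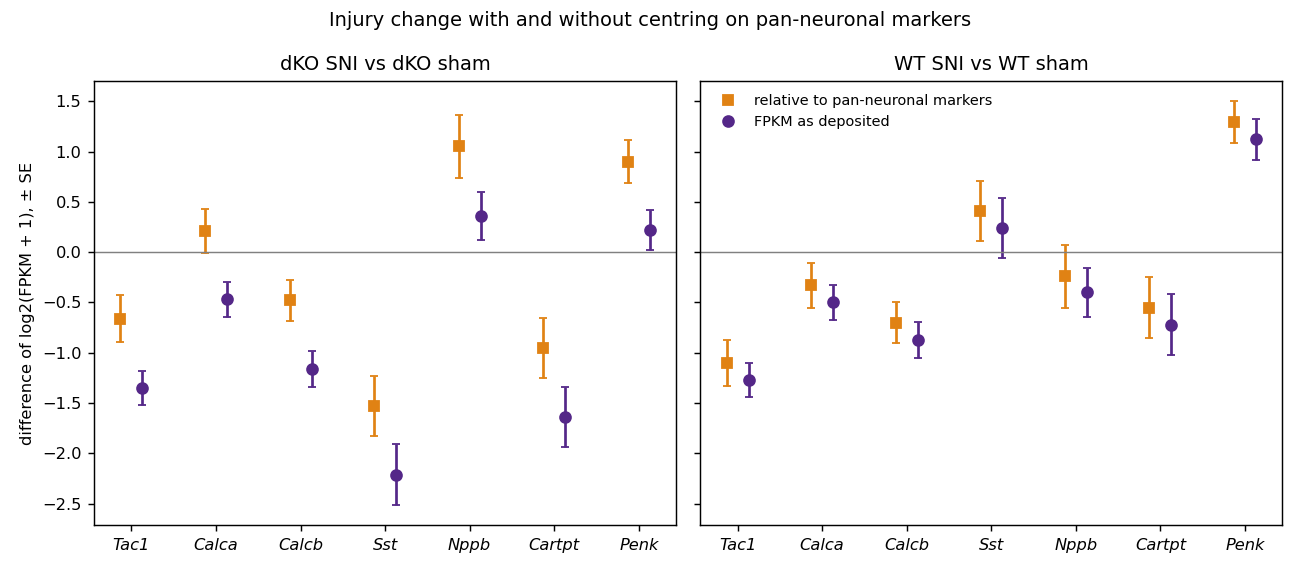
Log2 change with SNI and its SE from limma, in dKO ganglia on the left and WT ganglia on the right. Squares are values with each library centred on 13 pan-neuronal markers and circles are FPKM as deposited. In dKO ganglia the squares lie about 0.68 above the circles, and Calca moves from -0.47 to 0.21, while Sst stays lowest.

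Genes of the enzymes and helper proteins that make active peptides from precursors were read next. Of 9 tested, 6 were lower in dKO ganglia after SNI and 0 were higher, and in WT ganglia 2 were lower and 1 was higher. The shares over all genes were 24.6% lower and 23.8% higher in dKO ganglia, against 9.38% lower and 13.6% higher in WT ganglia. Pcsk2, a proprotein convertase, stood at 14.3 and 8.46 FPKM in dKO SNI ganglia, against 41.1 and 37.4 FPKM in dKO sham ganglia, and 27.6 and 23.3 FPKM in WT SNI ganglia, against 46.1 and 46.7 FPKM in WT sham ganglia. Averaged over genotypes the log2 change was -1.29 for Pcsk2, -0.66 for Cpe, a carboxypeptidase, and -0.46 for Pam, the amidating enzyme. Averaged over surgeries Pcsk2 (-0.69), Pcsk1n (-0.61), which inhibits a convertase, and Cpe (-0.43) were lower in dKO than in WT ganglia, where 10.4% of all genes were lower. Between dKO sham and WT sham ganglia 0 of the list were called. With centring on pan-neuronal markers the averaged genotype effect had 3 of the list higher and 0 lower. On that scale 7655 of 12884 genes were higher and 88 lower. The list's median for SNI in dKO ganglia was -0.45 and turned to 0.24 with centring on pan-neuronal markers, where 2 were higher and 1 was lower. Of all genes, 8226 were higher and 615 lower there.

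Of 14 genes of dense-core vesicles, 9 were lower after SNI in dKO ganglia and none was higher, while 6 were lower and 1 was higher in WT ganglia. Over all genes 24.6% were lower in dKO ganglia, against 9.38% lower and 13.6% higher in WT ganglia. Averaged over genotypes the log2 change was -1.07 for Cadps and -1.17 for Cadps2, which prime vesicles for release, and -1.43 for Scg3, a granin. Cadps stood at 18.3 and 15.7 FPKM in dKO SNI ganglia, against 45.7 and 41.3 FPKM in dKO sham ganglia, and 30.3 and 29.2 FPKM in WT SNI ganglia, against 53.1 and 54.8 FPKM in WT sham ganglia. Averaged over surgeries 7 of the 14 were lower in dKO ganglia, among them Cadps (-0.54), Scg3 (-0.85) and Chga (-0.84), the chromogranin A gene. In that comparison 10.4% of all genes were lower. With centring on pan-neuronal markers 3 of the 14 were lower and 1 higher there. Of all genes, 88 were lower and 7655 higher on that scale, so the 10.4% is not its background. As deposited, 0 of the 14 were called between dKO sham and WT sham ganglia. The median for SNI stayed negative in both genotypes with centring on pan-neuronal markers, at -0.37 in dKO ganglia and -0.51 in WT ganglia, while that for dKO SNI against WT SNI ganglia turned from -0.61 to 0.06.

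Of 19 receptor and co-receptor genes for these peptides 9 were tested, and averaged over genotypes 3 were lower and 3 higher after SNI. The shares over all genes in that comparison were 25.5% lower and 29.5% higher. Sstr2, a somatostatin receptor, was at 0.318 and 0.395 FPKM in dKO SNI ganglia, against 2.92 and 2.56 FPKM in dKO sham ganglia, and 0.306 and 0.430 FPKM in WT SNI ganglia, against 3.67 and 4.32 FPKM in WT sham ganglia. Its averaged log2 change was -1.66 ± 0.10 (SE, limma adjusted p = 5.73e-06). Oprd1, the delta opioid receptor on which enkephalins act, changed by -1.46 ± 0.11 (limma adjusted p = 1.51e-05), and Npr2, a natriuretic peptide receptor, by -0.41. The filter asked for 1 FPKM in 2 or more libraries. Sstr2 reached that level in sham libraries only, and Oprd1 in these and in WT SNI 2 (1.17 FPKM). Npr1, among the 3 higher, reached it in SNI libraries only and was at most 0.846 FPKM after sham surgery. These genes thus entered the test through the group where they were high. In dKO ganglia Oprd1 was also lower over both surgeries (-0.43), while Calcrl (0.40) and Ramp2 (0.44), which endothelial cells also express, were higher. With centring on pan-neuronal markers 4 of the 9 tested genes were higher and 0 lower in this comparison. Of all genes, 7655 were higher and 88 lower on that scale, so the 4 are to be read against that shift. Calcrl is a part of the CGRP receptor. Ramp1, the co-receptor with which it binds CGRP, was at most 0.788 FPKM in any library and was not tested. Summed markers of endothelial cells were 35.4 to 36.0 FPKM in dKO SNI and 24.1 to 24.4 FPKM in dKO sham ganglia. They were 25.3 to 25.4 FPKM in WT SNI and 21.5 to 24.7 FPKM in WT sham ganglia. The part of these cells in the Calcrl and Ramp2 values was not tested.

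Other peptide precursors went the other way. Of 18 listed 9 were tested, and 7 were higher and 1 was lower after SNI in dKO and likewise in WT ganglia. Over all genes 23.8% were higher in dKO and 13.6% in WT ganglia. Neurotensin (Nts) stood at 179 and 283 FPKM in dKO SNI ganglia, against 9.45 and 12.6 FPKM in dKO sham ganglia, and 148 and 171 FPKM in WT SNI ganglia, against 4.64 and 6.35 FPKM in WT sham ganglia. Averaged log2 changes were 4.44 for Nts, 4.30 for Npy (neuropeptide Y) and 4.15 for Gal (galanin). The summed level of the 18 was 860 to 936 FPKM in dKO SNI ganglia, against 79.4 to 103 FPKM in dKO sham ganglia, and 922 to 999 FPKM in WT SNI ganglia, against 56.3 to 72.6 FPKM in WT sham ganglia. It exceeded the sum of the 7 members in every SNI library and lay below it in every sham library. Between genotypes, over both surgeries, Grp (0.54), the gastrin-releasing peptide gene, and Nts (0.69) were higher in dKO ganglia.

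**Figure D5:**
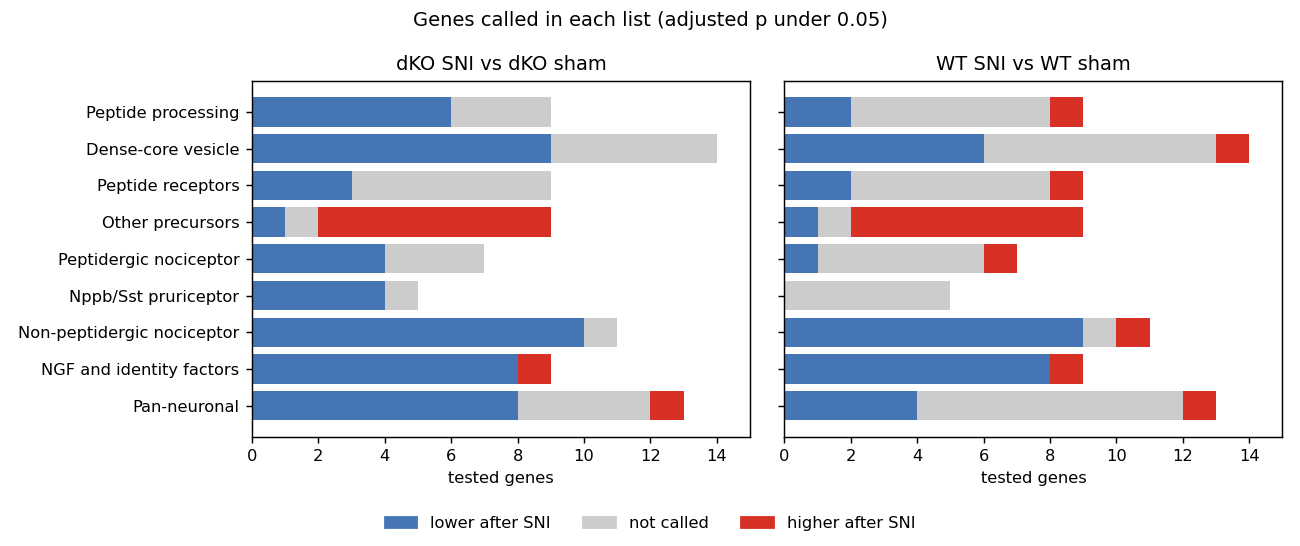
Number of tested genes (horizontal axis) in each of 9 lists that limma called lower or higher after SNI, or did not call, in dKO ganglia on the left and WT ganglia on the right. Other peptide precursors have 7 called higher in each genotype, and the 5 markers of Nppb and Sst neurons have 4 called lower in dKO and none called in WT ganglia. Over all genes 24.6% were lower and 23.8% higher in dKO ganglia, against 9.38% and 13.6% in WT ganglia.

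Markers of the neurons that hold the members were read beside them. Over all genes 24.6% were lower after SNI in dKO ganglia, against 9.38% lower and 13.6% higher in WT ganglia. Of 7 tested markers of peptidergic nociceptors, 4 were lower after SNI in dKO ganglia, and 1 was lower and 1 higher in WT ganglia. Trpv1, the capsaicin receptor, stood at 17.6 and 10.1 FPKM in dKO SNI ganglia, against 51.2 and 38.4 FPKM in dKO sham ganglia, and 25.4 and 23.2 FPKM in WT SNI ganglia, against 39.0 and 41.2 FPKM in WT sham ganglia. Averaged log2 changes were -1.18 for Trpv1 and -0.76 for Smr2. Of 11 markers of non-peptidergic nociceptors and other itch neurons, 10 were lower after SNI in dKO ganglia, and 9 were lower and 1 higher in WT ganglia, with averaged log2 changes of -2.12 for Mrgprd, -1.85 for Scn11a, a sodium channel gene, and -1.29 for Lpar5. The Mrgpra3 and Mrgprx1 receptor genes of that list have close relatives, and their reads may be shared. Of 9 genes of neurotrophin signalling and nociceptor identity, 8 were lower and 1 higher in each genotype, among them the transcription factor genes Prdm12 (averaged log2 change -1.62), Tlx3 (-1.20) and Prrxl1 (-1.34). In dKO ganglia 8 of 13 pan-neuronal markers were lower and 1 was higher as well, and in WT ganglia 4 were lower and 1 was higher. The higher one was Nsg1 in both genotypes, so injury did not move all of these markers in the same direction. With centring on them, 2 of the 7 peptidergic markers were lower after SNI in dKO ganglia (median log2 change -0.11, against -0.79 as deposited). On that scale 8 of the 11 non-peptidergic markers were lower and 1 higher (median -0.78, against -1.46), and 6 of the 9 neurotrophin and identity genes were lower and 1 higher (median -0.91, against -1.59).

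Across the 8 libraries the members did not move as a block. As a description over 8 libraries in 4 groups, Pearson's r of log2(FPKM + 1) was 0.93 between Tac1 and Calcb, 0.90 between Calcb and Cartpt and 0.87 between Tac1 and Calca. It was -0.77 between Tac1 and Penk and -0.56 between Sst and Nppb. By the same measure over all tested genes, the closest patterns to Tac1 were those of Nrg2 (r = 0.991), Serpina3g (0.984) and Comp (0.983). Those closest to Calcb were Prkdc (0.994), Rasd2 (0.987) and Scg2 (0.985), and to Calca Adi1 (0.962), Rarg (0.942) and Ndufaf3 (0.934). Those closest to Sst were Polr2b (0.986), Fads2 (0.978) and Bub3 (0.974), and to Nppb Abhd14b (0.944), Acyp2 (0.940) and Cyp2s1 (0.932). Those closest to Cartpt were Rgs9 (0.980), Crhr2 (0.976) and Phkb (0.975), and to Penk Clmn (0.959), Ovca2 (0.948) and Pitpnm3 (0.947).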

How the data were processed

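The deposited table holds FPKM values that the authors made from paired-end libraries. Per the submitters' processing notes, the tools were HISAT2 (2.0.4), StringTie (1.3.0) and edgeR, and the builds GRCm38.p4 and mm10, without role or order. Read totals are unknown: FPKM totals per library were 278310 to 339920, low values did not give whole reads, and no count model or counting interval was used. The 12884 genes that reached 1 FPKM in 2 or more libraries were tested on log2(FPKM + 1) by limma (3.58.1, R 4.3.3). Group means were fitted to the 8 libraries together, which left 4 residual degrees of freedom, with empirical Bayes moderation and a trend, two-sided tests and Benjamini-Hochberg adjustment over all genes at 0.05. It was tested on simulated data. Differences of log2 ratios were tested by exact permutation (6 tests, scipy 1.17.1). Whether libraries of a group are from separate mice is not stated, so the p-values reflect a spread that may be only technical. Replicates correlated at r = 0.984 to 0.989.

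The members and gene lists were chosen with earlier results of these data known. Named genes are the members, the targeted genes with Avil, the 3 genes with the closest pattern to each member, and from each list the 3 with the smallest p in the averaged effects. A gene that this rule takes is not reported here. Per-library values of list genes, and genes named outside that rule, were chosen after their values were seen. Alternatives were other pseudocounts, filters, scalings and fits, the replicate number as a block, and leaving out each library.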

Additional observations from a re-analysis of the deposited data

Results flagged for a closer look

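Penk, the enkephalin precursor, was flagged because the difference between genotypes had opposite signs after the 2 surgeries. After SNI both dKO libraries (7.67 and 7.16 FPKM) lay below both WT libraries (12.5 and 8.98 FPKM), and after sham surgery both dKO libraries (7.50 and 5.15 FPKM) lay above both WT libraries (4.97 and 3.76 FPKM). The difference of the injury effects, dKO minus WT, was -0.90 on the log2 scale and did not pass over all genes (limma adjusted p = 0.273). Y-linked transcripts were present in the dKO SNI and WT sham libraries and near 0 in the others, so this difference and that of Y-linked transcripts cannot be told apart. Penk overlaps a gene on the other strand, whose share of these reads was not tested.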

How the results depend on the processing

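Over 49 log2 changes of single members and 903 alternative values, 817 kept their direction and side of the threshold, 17 gained and 30 lost a call, and 39 changed sign; where not stated otherwise the cause was not tested. The averaged injury calls kept 6 of 7 members without each library. For dKO SNI against WT SNI the number of members called was 1 with no filter, 4 with centring on pan-neuronal markers and 0 to 2 with each library left out. For the averaged genotype effect it was 0 with no filter, 5 with that centring and 0 to 2 with each library left out. For the difference of the injury effects it was 0 to 1 with each library left out and 1 with the replicate block, where Sst passed (limma adjusted p = 0.0152). With the block Penk also passed in dKO SNI against WT SNI ganglia (limma adjusted p = 0.0466), and no other call of a member changed. With centring on pan-neuronal markers, 8494 of the 12884 genes were called in dKO SNI against WT SNI, against 3106 as deposited. For the averaged genotype effect 7743 genes were called with that centring, against 2866 as deposited. The 4 and 5 members called on that scale are to be read against these counts. Same-numbered libraries correlated at -0.19 to 0.25 in their deviations from group means, and whether the number marks a shared batch or pairing was not tested. The 6 ratio tests have too few libraries to say anything of stability, since a single ratio at the smallest possible p adjusts to 0.1714.

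With centring on pan-neuronal markers the sign changed for Calca with SNI in dKO (0.21), for Calcb (0.39), Cartpt (0.40) and Penk (0.21) in dKO SNI against WT SNI, for Nppb in the averaged injury effect (0.41), for Calcb (0.28) and Penk (0.40) in the averaged genotype effect, and for Tac1 (0.44) and Calcb (0.23) in the difference of the injury effects. Penk then passed in the averaged genotype effect (limma adjusted p = 0.0402). This centring shifted the median of all genes by 0.16 for dKO sham against WT sham, 0.43 for averaged injury, 0.42 for averaged genotype and 0.52 for the difference. It moved the share of calls that were higher to 93.0% in dKO SNI against dKO sham (49.2% as deposited), 98.8% in dKO SNI against WT SNI (44.2%), 89.2% for averaged injury (53.7%) and 98.9% for averaged genotype (53.1%). In WT SNI against WT sham that share was 59.3% as deposited, 75.7% with this centring, 45.9% with quantile normalization and 49.9% with median centring.

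Quantile normalization turned Tac1 (-0.01) and Calcb (0.00) in dKO sham against WT sham, Nppb in averaged injury (0.01) and Tac1 in the difference (0.11). Median centring turned Calcb in dKO sham against WT sham (-0.04). A pseudocount of 5 turned Nppb in averaged injury (0.00), one of 0.1 turned Penk in averaged genotype (0.00), and summing both CGRP genes turned the Calca difference (0.00). With each library left out, values that crossed 0 ran from -0.12 to 0.60 for Sst with SNI in WT, from -0.01 to 0.73 for Nppb and -0.02 to 0.45 for Penk with SNI in dKO, from -0.21 to 0.23 for Calcb and -0.02 to 0.51 for Nppb in dKO sham against WT sham, and from -0.16 to 0.23 for Tac1 in dKO SNI against WT SNI. They ran from -0.21 to 0.16 for Nppb in averaged injury, from -0.03 to 0.17 for Tac1, -0.11 to 0.47 for Cartpt and -0.13 to 0.11 for Penk in averaged genotype, and from -0.27 to 0.12 for Tac1 and -0.14 to 0.20 for Calca in the difference. Read depth is unknown, so the counting error of the low members, Penk and Nppb in particular, is not given.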
